A study of Homo sapiens with 19 samples.

Results

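Glutathione S-transferases join the tripeptide glutathione to reactive, often toxic molecules such as the aldehydes of lipid peroxidation, and the products are then carried out of the cell and trimmed. The soluble enzymes fall into classes (alpha, mu, pi, theta, omega, zeta and, in mitochondria and peroxisomes, kappa), and a separate membrane-bound family, MAPEG, includes MGST1. Several of these genes are known as targets of NRF2, the transcription factor of the oxidative stress response, which KEAP1 holds back in unstressed cells.

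The genes described here are 10 members of this family: GSTT2 and GSTT2B (theta), GSTP1 (pi), GSTA4 (alpha), GSTM2, GSTM3 and GSTM4 (mu), GSTO1 (omega), GSTK1 (kappa) and MGST1 (MAPEG). They were found by the RefSeq transcript that each array probe is named for, and they are 10 of the 20503 genes so matched, with 13 of the 28174 matched probes. They were selected on their scaled log2 signals over these same 19 arrays, whose time courses were known when the members were named, so their changes over time are given as a description, with standard errors. Counts of members at the threshold used for all genes are given once beside those of all genes, as a description too, and test nothing. All 13 probes were well above background on all 19 arrays.

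KhES-3 cells, an established line of human embryonic stem cells, were used, and the study asked which genes change in the earliest phase of their differentiation into brown adipocytes (BA). One sample was taken at each of 19 times of BA induction, at 3 and 4 h, then every 2 h from 6 to 16 h, every 4 h up to 36 h and every 6 h up to 72 h. All samples were in the same serum-free medium on low-attachment dishes, which held albumin, lipids, monothioglycerol, insulin-transferrin-selenium, an ascorbic acid derivative and the factors IGF-II, BMP4, VEGFA, KITLG, FLT3LG and IL-6. The labels give irradiated mouse embryonic fibroblasts as the feeder layer before induction, whereas the methods describe feeder-free upkeep of the line, and an uninduced sample was not analysed here.

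Each sample was hybridized to a one-colour Agilent array, and there were no replicates, so the spread between samples of one time is unknown, and how precise a value is depends on how many arrays there are. The arrays lay on 3 slides, holding 3 to 12 h, 14 to 42 h and 48 to 72 h, with the third scanned separately from the other 2, so that a step between 12 and 14 h or between 42 and 48 h cannot be told apart from a change of slide. Between 49.6% and 64.7% of probes were well above background, the least at 14 h. The pluripotency markers POU5F1, NANOG, SOX2, LIN28A, DPPA4, ZFP42 and SALL4 were above background on all 19 arrays. Of the 6 brown adipocyte markers, PPARGC1A was above background on all 19 arrays, PRDM16 on 13, UCP1, PPARG and CIDEA on 8 each and ADIPOQ on 0. In RNA from whole cultures, fewer cells of a type and less RNA per cell cannot be told apart.

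Below, a signal is the processed intensity of a probe after each array was scaled to a common 75th percentile of 725. The late minus early change is the mean log2 signal of the last 3 arrays (60, 66 and 72 h) less the mean of the first 3 (3, 4 and 6 h). The slope is the change in log2 signal per hour over the 19 arrays, with its standard error (SE). Signals of different probes are not compared, since brightness depends on the probe as well as on the transcript.

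The family did not move as a block. GSTT2 and its duplicate GSTT2B ended 4.71-fold and 4.60-fold above where they began, GSTA4 1.73-fold and GSTM4 1.26-fold above. GSTM3 and MGST1 ended at 0.551 and 0.620 of their early signal. In their brightest probes, GSTP1, GSTM2, GSTO1 and GSTK1 changed by 0.04 to 0.13 on the log2 scale. As a description, 4 members had a slope above 0 and 2 a slope below 0 at the threshold used for all genes (limma, adjusted p under 0.05), beside 21.3% of all 16694 genes tested with a slope above 0 and 32.7% with one below it. With a term for each slide the members' counts were 2 and 1, beside 4.22% and 5.33% of all genes. The duplicates GSTT2 and GSTT2B are both among the 4 members with a slope above 0, and with the slide terms they are the only 2. Nothing is read from these counts, since the members were selected on the same values. The median late minus early change of the 10 members was 0.09 on the log2 scale, and that of the 16258 genes measured in both windows was -0.11.

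**Figure D1:**
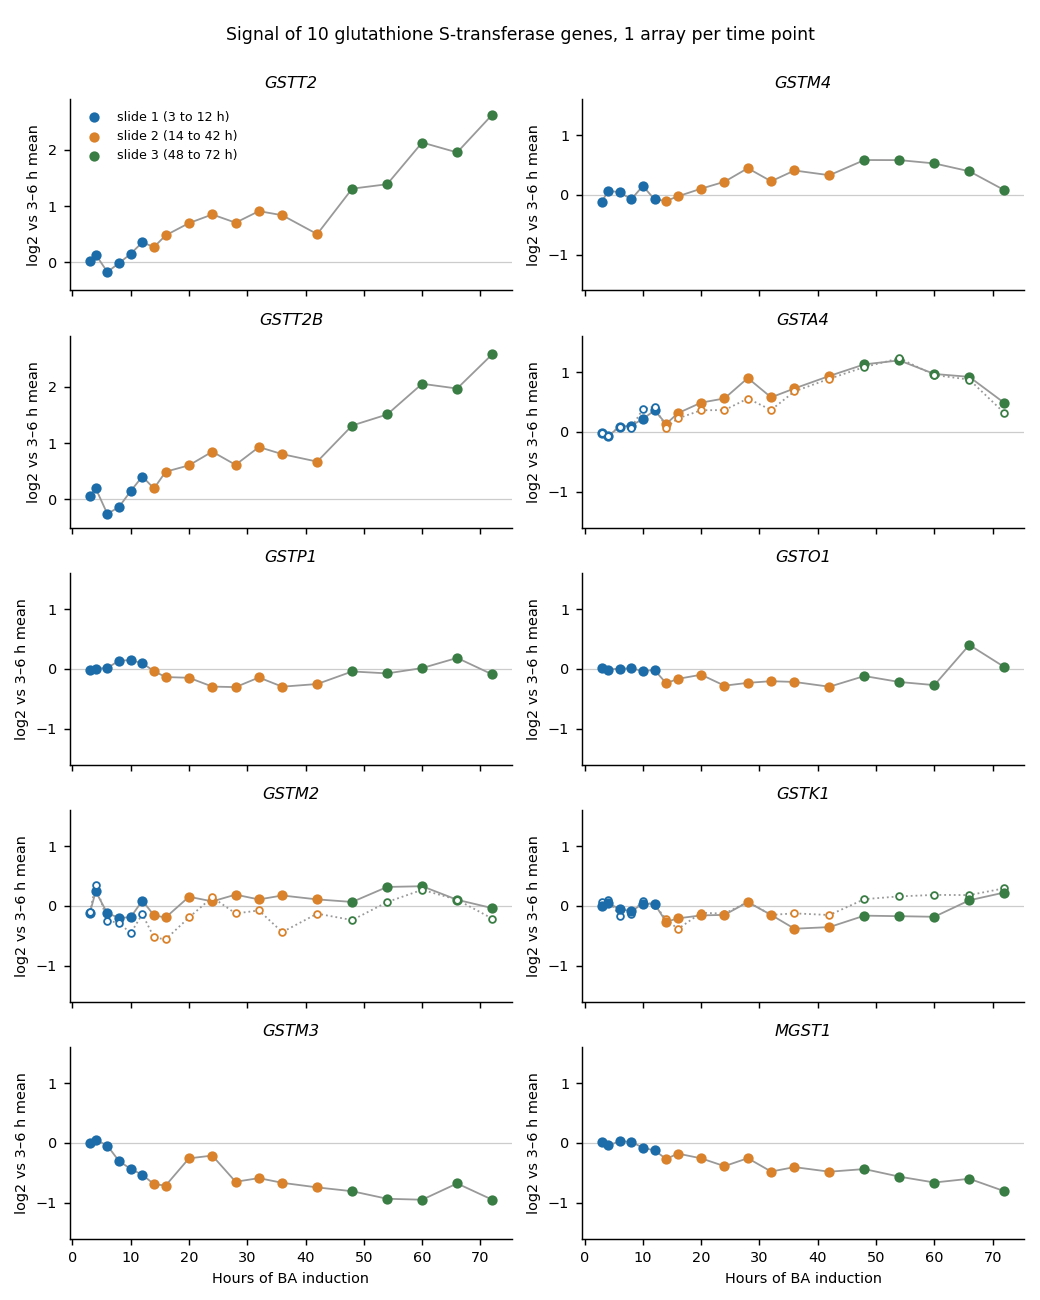
Log2 signal of each member relative to its own mean at 3, 4 and 6 h (vertical axis) against hours of BA induction (horizontal axis), 1 array per point, coloured by slide; open points on dotted lines are the dimmer probe of GSTA4, GSTM2 and GSTK1, and GSTT2 and GSTT2B have a vertical axis of their own. GSTT2 and GSTT2B climbed in parallel to their highest signal at 72 h, while GSTA4 peaked at 54 h and MGST1 declined across all 3 slides.

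Among the 10 members, the theta class pair showed the largest change. GSTT2 and GSTT2B are near-identical copies of one gene on chromosome 22, and in the RefSeq annotation of GRCh38.p14 they lie either side of DDTL and DDT, with GSTT2 itself annotated as a transcribed pseudogene. Their probes cannot be assumed to tell the 2 transcripts apart, so the pair is read as 1 observation. Both genes nevertheless enter the counts and the median of the 10 members. The GSTT2 probe (NM_000854) read 2419, 2606, 2104, 2342, 2630 and 3030 on the 6 arrays of the first slide, in order of time from 3 to 12 h. On the 8 arrays of the second slide, from 14 to 42 h, it read 2858, 3301, 3839, 4271, 3859, 4450, 4231 and 3352. On the 5 arrays of the third, from 48 to 72 h, it read 5870, 6199, 10364, 9172 and 14579.

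The signal therefore rose in 3 stretches: a gentle climb over the first 24 h, a level course to 42 h, and a steep climb after it. In windows of neighbouring times the mean was 2367 at 3 to 6 h, 2653 at 8 to 12 h, 3309 at 14 to 20 h, 4060 at 24 to 28 h, 3981 at 32 to 42 h, 6032 at 48 to 54 h and 11149 at 60 to 72 h. The arrays of 24 to 28 h and of 32 to 42 h overlapped, as did those of 3 to 6 h and 8 to 12 h and those of 8 to 12 h and 14 to 20 h. The 5 arrays of the third slide lay above the other 14, and within that slide the 3 arrays from 60 h on lay above the 2 before.

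The slope of GSTT2 was 0.0331 (SE 0.0027) over all arrays and 0.0251 (SE 0.0075) with a term for each slide. The step from 42 to 48 h, which is also the change to the third slide, was 0.81 on the log2 scale. Within that slide alone the signal gained a further 1.31 from 48 to 72 h, so that more of the rise lay inside the slide than at its edge. By slide, the slopes were 0.0291 (SE 0.021), 0.0099 (SE 0.0082) and 0.0532 (SE 0.012). The first and second are within about 1.5 times their own errors of 0, and the third is not.

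The GSTT2B probe (NM_001080843) traced the same curve. It started from 1104 (3 h), had its lowest signal, 885, at 6 h, reached 1906 by 24 h, stood at 1685 on the last array of the second slide and at 2630 on the first of the third, and ended on its highest, 6315, with a median of 1620. Its slope was 0.0337 (SE 0.0025) and its late minus early change 2.20, against 2.24 for GSTT2. Once each curve was centred on its own mean, the root-mean-square difference between the 2 probes was 0.074 on the log2 scale, and the largest departure was 0.18 at 42 h. GSTT2 ranked 50th and GSTT2B 55th from the top of the 16258 genes by late minus early change.

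Measured in the same way, the genes whose centred time courses lay nearest to GSTT2 among 13968 genes above background on all 19 arrays were, after GSTT2B, TEP1 (0.22), GSDMB (0.23), ANKRD20A5P (0.24) and FBXL2 (0.25). TEP1 encodes a telomerase-associated protein, GSDMB a gasdermin and FBXL2 an F-box protein of ubiquitin ligases. Their differences from GSTT2 were 3 times that of the duplicate or more. The genes between the pair on chromosome 22 had smaller changes: DDT, a tautomerase, had a late minus early change of -0.18 (limma adjusted p = 0.0436), and DDTL, its close relative, one of 0.49 (adjusted p = 0.0781). Among the 8 neighbours listed within the wider region, 3 rose and 2 fell, beside 21.3% and 32.7% of all genes. SUSD2, which encodes a membrane protein used to sort naive stem cells, rose by 1.597 (adjusted p = 1.23e-08), DERL3 by 0.44 and CABIN1 by 0.36, while SMARCB1, a chromatin remodelling subunit, fell by 0.68 (adjusted p = 1.38e-06). DERL3 and CABIN1 had slopes below 0 when arrays were scaled to spike-in RNA, and a second, dimmer probe of DERL3 fell by 1.03 (adjusted p = 0.0147). DDT had a slope above 0 after quantile normalization.

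GSTA4, the alpha class enzyme that handles 4-hydroxynonenal, an aldehyde of lipid peroxidation, rose and then turned. Its probe with 10 spots per array (NM_001512) climbed from 1568 (3 h) through 2329 (24 h) to 3022 on the last array of the second slide, and on the third slide read 3458, 3620, 3093, 2991 and 2211 in order of time, with a lowest signal of 1500 at 4 h. The climb was therefore spread over the first 2 slides, and by 72 h the signal was back near the median of 2219. The slope within the slides was 0.0430 (SE 0.0064), 0.0242 (SE 0.0057) and -0.0261 (SE 0.0078), a change of sign on the third. The late minus early change of 0.79 thus averages over a peak and its decline.

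The second GSTA4 probe, named for the same transcript, followed the first. Its lowest signal was 529 (4 h), its highest 1295 (54 h) and its last 688, with a root-mean-square difference from the first probe of 0.11 after centring. Both probes thus had their lowest signal at 4 h and their highest at 54 h. The spread between the 10 spots of the first probe on one array had a median SD of 0.041 on the log2 scale, far below the change of -0.71 from 54 to 72 h, but it covers spot noise and not the spread between cultures. The slope over all arrays, 0.0144 (SE 0.0026), was 0.0087 (SE 0.0071) with a term for each slide.

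The mu class genes form a cluster on chromosome 1, in the order GSTM4, GSTM2, GSTM1, GSTM5 and GSTM3, and their members took different courses. These genes resemble each other closely, and how far each probe reads only its own gene was not tested. GSTM3 (NM_000849), a mu enzyme named for brain and testis, read 961, 1002, 936, 782, 715 and 668 on the 6 arrays of the first slide in order of time. On the second slide its signal ranged from 577 at 42 h to 834 at 24 h, and on the third from 500 at 60 h to 604 at 66 h. The window mean went from 966 at 3 to 6 h to 720 at 8 to 12 h, a change of -0.42, was 717 at 24 to 28 h after a partial return at 20 and 24 h, and was 528 at 48 to 54 h, a change of -0.87 from the first window. The slope within the first slide was -0.0682 (SE 0.0087). On the second slide and on the third the slopes were -0.0055 (SE 0.0084) and -0.0004 (SE 0.0073). The slope over all arrays was -0.0114 (SE 0.0022), and with a term for each slide it was -0.0073 (SE 0.0060). The 10 spots of its probe had a median SD of 0.059 (log2).

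GSTM4 (NM_147148) changed little, and its direction rested on the scaling. Its lowest signal was 313 on the first array, it stood at 461 by 28 h and at its highest, 507, by 48 h, and it ended on 357, with a median of 375. Like GSTA4 it thus had its highest signals at 48 and 54 h and declined to 72 h, with a slope of -0.0199 (SE 0.0059) on the third slide after 0.0165 (SE 0.0046) on the second. The root-mean-square difference between the centred courses of the 2 genes was 0.20. The late minus early change of 0.33 became -0.01 with arrays scaled to their median and -0.25 with arrays scaled to spike-in RNA. Its slope was 0.0076 (SE 0.0019), and 0.0039 (SE 0.0055) with a term for each slide.

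GSTM2 changed little in either of its probes (both NM_000848). The brighter read between 462 at 8 h and 667 at 60 h, with a median of 565 and a slope of 0.0038 (SE 0.0018). The dimmer read between 141 at 16 h and 266 at 4 h, with a median of 189 and a slope of 0.0033 (SE 0.0026). The 2 probes differed by 0.17 (root mean square, log2), more than those of GSTA4. Among the 5 genes listed as neighbours of the mu cluster, 4 were tested. Of these, 2 rose and 0 fell, beside 21.3% and 32.7% of all genes, and 0 rose and 0 fell with a term for each slide. The representative probe of CSF1, a growth factor of macrophages, rose by 0.88 (limma adjusted p = 0.0285) and EPS8L3 rose by 0.69 (adjusted p = 7.36e-05). The slope of this CSF1 probe was below 0 with a term for each slide. Its signal ranged from 307 to 370 on the first slide, from 624 to 758 on the second and from 557 to 635 on the third. Another CSF1 probe changed by 0.09 (limma adjusted p = 0.178), and a further probe was above background on 0 arrays.

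MGST1, the MAPEG enzyme of the endoplasmic reticulum and outer mitochondrial membrane, fell at an even pace. Its probe (NM_145791) went from 41255 to 37377 over the first slide, from 33825 to 29183 over the second and from 30094 to 23289, its lowest, over the third, with its highest, 41446, at 6 h and a median of 33825. The signal ranges of the 3 slides, 37377 to 41446, 29183 to 35999 and 23289 to 30094, thus stepped down with a short overlap between the last 2. The slopes within the slides were -0.0130 (SE 0.0062), -0.0095 (SE 0.0027) and -0.0129 (SE 0.0035), and the slope over all arrays was -0.0108 (SE 0.0011), the same with a term for each slide (-0.0108, SE 0.0026). The scatter of MGST1 about its line had an SD of 0.076 on the log2 scale, against 0.255 for GSTT2. Among the members, MGST1 alone had a slope of one sign in each slide that was more than 2 times its SE in all 3. With so few arrays on a slide, this multiple describes the slopes and tests nothing.

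**Figure D2:**
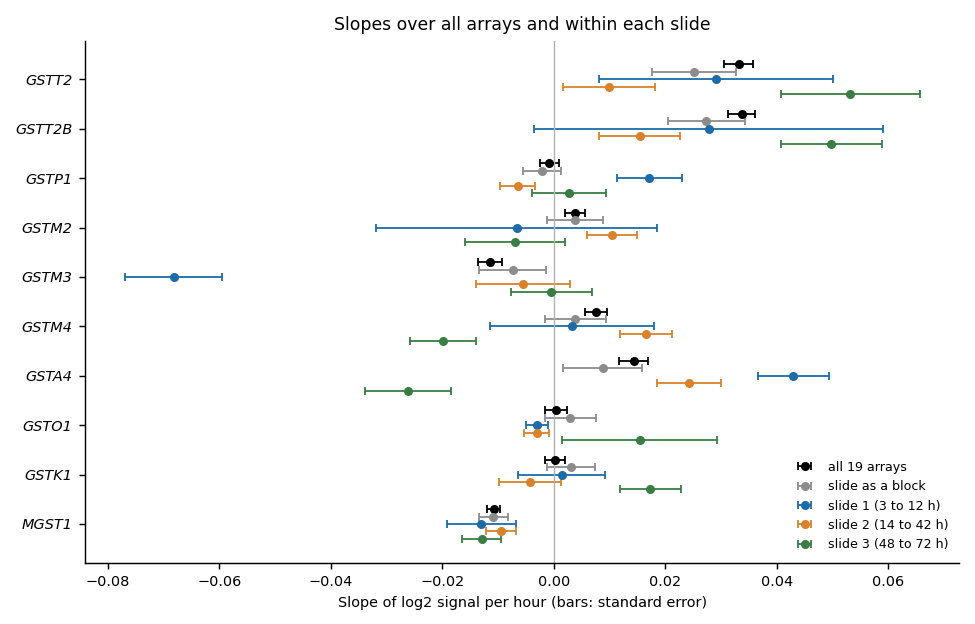
Slope of log2 signal per hour (horizontal axis, bars 1 standard error) for each member over all 19 arrays, with the slide as a block, and within each slide. MGST1 has slopes below 0 in all 3 slides, GSTT2 and GSTT2B have their steepest slope on the third, GSTM3 on the first, and GSTA4 and GSTM4 turn below 0 on the third.

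The other members stayed near their starting signal. GSTP1 (NM_000852), the pi class enzyme on chromosome 11 often abundant in tumour cells, read between 219333 at 28 h and 307722 at 66 h, with a median of 263015. Its ranges by slide were 267029 to 299980, 219333 to 263957 and 254413 to 307722. The middle slide thus lay below the first with no overlap, and most of its range below the third, while the early and late means, 270974 and 277685, differed by 0.04 on the log2 scale. The slope was -0.0008 (SE 0.0018).

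GSTO1 (NM_004832), the omega class enzyme that also reduces dehydroascorbate, was also lower on the middle slide than on the first. It started at 15127 and ended at 15397, with its lowest signal, 12245, at 42 h, its highest, 19884, at 66 h and a median of 13860. All 8 arrays of the second slide lay below all 6 of the first, whose signals spanned only 14699 to 15140, and the high signal at 66 h was that of 1 array. Between GSTP1 and GSTO1 the root-mean-square difference was 0.12 after centring, the smallest between members after GSTT2 with GSTT2B and the 2 probes of GSTA4.

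GSTK1, the kappa class enzyme, had 2 probes named for different transcripts. That for NM_001143679 read between 4190 at 36 h and 6374 at 72 h, with a median of 4919 and a slope of 0.0002 (SE 0.0018). That for NM_015917 read between 387 at 16 h and 621 at 72 h, with a median of 511 and a slope of 0.0044 (SE 0.0017). The slope of the second was thus more than 2 times its SE and that of the first was not. The late minus early change was 0.05 for the first probe and 0.22 for the second. On the third slide both had slopes above 0, 0.0173 (SE 0.0055) and 0.0064 (SE 0.0017). Both also had their highest signal at 72 h.

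Scaling the arrays to their median or to spike-in RNA moved all members down together. The median late minus early change over the 32113 probes tested was 0.07 under the main scaling, -0.27 when the median of each array was used instead, and -0.52 when the RNA spiked into every sample was. GSTT2 changed by 2.24, 1.90 and 1.65 under these 3 scalings, and by 2.42 after normexp background correction and quantile normalization. GSTA4 changed by 0.79, 0.45 and 0.21, GSTM3 by -0.86, -1.20 and -1.44, and MGST1 by -0.69, -1.03 and -1.27. The direction thus held for these 4 genes, and for GSTT2B, under all 4. GSTP1, GSTM2, GSTO1 and GSTK1, near 0 with the 75th percentile, were below 0 with the median and the spike-in RNA. Normexp with quantile normalization moved members in both directions, such as GSTO1 from 0.05 to 0.36 and GSTP1 from 0.04 to -0.07.

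**Figure D3:**
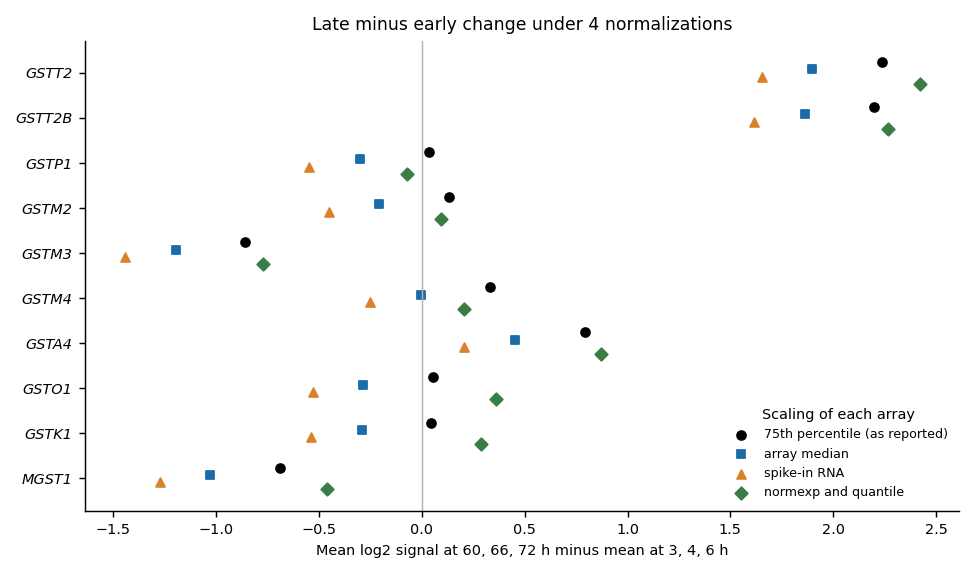
Late minus early change in log2 signal (horizontal axis) of each member under 4 ways of normalizing the arrays, 1 symbol each. GSTT2, GSTT2B and GSTA4 stay above 0 and GSTM3 and MGST1 below 0 under all 4, while GSTM4 and the members near 0 change sign.

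Upstream sequence was at hand for 8 of the 10 members in RefSeq's GRCh38.p14 table, in 10 windows of the 250 bases before a gene's start. The windows are shown for the 3 members that hold the core of the antioxidant response element to which NRF2 binds, searched as TGACNNNGC on both strands. That core is in 10.9% of the 35116 windows of this length in the table. Capitals mark it, each sequence is on the gene's own strand, 5′ to 3′, and a match is a description of the letters and not of binding. The windows are GSTP1 at chr11:67583562-67583811 (+), GSTA4 at chr6:52995285-52995534 (-) and GSTO1 at chr10:104254642-104254891 (+).
GSTP1: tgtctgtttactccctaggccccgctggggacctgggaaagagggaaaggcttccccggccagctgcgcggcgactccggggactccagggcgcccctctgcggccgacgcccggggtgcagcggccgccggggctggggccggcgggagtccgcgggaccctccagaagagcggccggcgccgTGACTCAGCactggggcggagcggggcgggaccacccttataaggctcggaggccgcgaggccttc
GSTA4: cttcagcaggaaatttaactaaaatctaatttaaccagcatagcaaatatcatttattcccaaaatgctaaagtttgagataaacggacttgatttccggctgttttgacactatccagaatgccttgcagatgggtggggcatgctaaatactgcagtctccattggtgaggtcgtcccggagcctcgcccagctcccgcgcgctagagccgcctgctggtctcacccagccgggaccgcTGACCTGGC
GSTO1: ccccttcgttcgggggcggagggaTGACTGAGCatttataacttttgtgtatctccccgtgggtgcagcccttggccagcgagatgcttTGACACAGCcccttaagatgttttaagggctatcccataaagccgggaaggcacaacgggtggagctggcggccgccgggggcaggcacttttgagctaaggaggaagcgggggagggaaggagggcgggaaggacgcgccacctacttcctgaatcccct

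The match in GSTP1, TGACTCAGC, begins 66 bases before the start and also holds an AP-1 motif, searched as TGANTCA, which is in 6.57% of all windows. GSTA4 has TGACCTGGC, which begins 9 bases before the start, and GSTO1 has 2 matches, the first of them TGACTGAGC, 226 bases before it. The GC box GGGCGG, in 42.6% of all windows, was in those of GSTP1 and GSTO1 but not that of GSTA4. The 3 genes with the core had different courses, with GSTA4 rising to 54 h and GSTP1 and GSTO1 near their starting signal. No window of GSTM2, GSTM3, GSTM4, GSTK1 or MGST1 holds those letters.

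The rest of the family was tested as genes outside the 10. Of 12 such genes listed, 11 had a probe and 9 passed the filter on dim probes (5 or more arrays well above background). Of these, 4 rose and 2 fell (limma, adjusted p under 0.05), beside 21.3% and 32.7% of all genes. With a term for each slide 0 rose and 0 fell (1 and 1 at an unadjusted p under 0.05). With any 1 array left out, 2 or 3 rose, and 2 without the 6, 8, 14, 16, 36, 48 or 60 h array. Their median late minus early change was 0.09. GSTA5 rose from a mean of 14.8 to 89.4, a change of 2.60 (limma adjusted p = 2.29e-05, or 0.413 with a term for each slide). It had 1 of 3 early and 3 of 3 late arrays above background and its highest signal, 182, at 66 h. It passed the filter with 9 arrays above background, every array of the third slide among them. GSTA3, an alpha class enzyme of steroid hormone synthesis, rose by 1.25 (limma adjusted p = 0.00796, or 0.533 with a term for each slide). It had 1 early and 2 late arrays above background. The early means of GSTA5 and GSTA3 lay below the lowest signal called above background on those arrays. The sizes of these changes are therefore uncertain and are not set against that of GSTT2. GSTA2 moved by 0.93 (adjusted p = 0.245). All 3 probes are dim, and the spread about the line was 0.53 to 0.64 (log2).

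In the mu cluster, GSTM1 and GSTM5 changed by 0.09 and 0.30. Their slopes were above 0 (limma adjusted p = 0.048 and 0.0460), and both slopes turned below 0 under the median and spike-in scalings. GSTZ1, the zeta class enzyme of tyrosine breakdown, fell by 0.33 (adjusted p = 0.0104). Of the membrane-bound relatives of MGST1, MGST2 fell by 0.49 (adjusted p = 0.000451), though its signal of 1972 at 66 h stood above the 1261 to 1358 of the other 4 arrays of that slide. MGST3 changed by -0.13 in its brighter probe (limma adjusted p = 0.254) and by 0.06 in its dimmer probe (adjusted p = 0.490). GSTO2, the second omega enzyme, changed by 0.00 (adjusted p = 0.786). GSTT1, another theta class gene, and HPGDS, the sigma class prostaglandin D synthase, were not well above background on any array. Of 3 further MAPEG genes, 2 were tested, and 1 rose and 0 fell, beside 21.3% and 32.7% of all genes. The gene that rose was LTC4S, leukotriene C4 synthase, by 0.34 (limma adjusted p = 0.0211).

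Of the 15 genes listed for synthesis and recycling of glutathione, 11 fell, beside 32.7% of all genes, and 2 of 15 with a term for each slide, beside 5.33%. Of 44 tested genes of its synthesis, recycling, use, breakdown and export, 10 rose and 18 fell, beside 21.3% and 32.7% of all genes. Their median change was -0.17. With a term for each slide 3 rose and 3 fell, beside 4.22% and 5.33% of all genes. In synthesis 4 of 6 fell and 1 rose, or 1 and 0 with a term for each slide. GCLC, the catalytic subunit of the rate-limiting ligase, fell by 1.17 (adjusted p = 2.73e-08, and also below the threshold with a term for each slide) and SLC7A11, the cystine transporter, by 0.61 (adjusted p = 0.00594). GGCT, listed with synthesis although it cleaves gamma-glutamyl dipeptides, fell by 0.71 (adjusted p = 8.01e-08). A second, dimmer probe of GGCT changed by -0.08 (adjusted p = 0.388). GCLM, the modifier subunit of the same ligase, rose by 0.73 (adjusted p = 0.0127), but its slope was below 0 with a term for each slide.

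In recycling and thiol exchange 7 of 9 fell and 0 rose (0 also at an unadjusted p under 0.05), beside 32.7% and 21.3% of all genes. With a term for each slide 1 fell and 0 rose, beside 5.33% and 4.22% of all genes. IDH1, a source of NADPH, fell by 1.06 (adjusted p = 4.02e-07), and the glutaredoxins GLRX2 and GLRX fell by 0.99 (adjusted p = 0.000499) and 0.86 (adjusted p = 7.11e-07). Among 7 peroxidases, GPX3 fell by 0.64 and GPX1 by 0.57 (adjusted p = 0.000104 and 0.000273), and the representative probe of GPX8, of the endoplasmic reticulum, rose by 0.33 (adjusted p = 0.00376), with a slope below 0 under spike-in scaling. The other GPX8 probe, with 10 spots per array, fell by 0.90 (adjusted p = 1.88e-08), so the direction of GPX8 is uncertain. Of 3 glyoxalase pathway genes, 0 passed the threshold (0 also at an unadjusted p under 0.05), beside 21.3% of all genes rising and 32.7% falling.

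Breakdown was split, with 4 of 10 rising and 4 falling, beside 21.3% and 32.7% of all genes. ANPEP, an aminopeptidase at the cell surface, rose by 1.80 (adjusted p = 6.79e-08), DPEP1, the dipeptidase that cleaves cysteinylglycine, by 0.38 (adjusted p = 0.0153) and OPLAH by 0.30 (adjusted p = 0.0234, with a slope below 0 under spike-in scaling). The DPEP1 probe is dim and was above background on 9 arrays. The cytosolic glutathione cleaving enzymes CHAC2 and CHAC1 fell by 1.13 (adjusted p = 5.28e-05) and 0.94 (adjusted p = 0.00723), and LAP3 by 0.43 (adjusted p = 0.00121). Of 9 transporters, 4 rose and 1 fell, beside 21.3% and 32.7% of all genes. ABCC3, an exporter of conjugates, rose by 1.44 (adjusted p = 0.000221), with 1 of 3 early arrays above background. SLC25A40, which is related to the mitochondrial glutathione carrier, rose by 0.90 (adjusted p = 0.00016) and ABCC5 by 0.30 (adjusted p = 0.00276), while ABCG2 fell by 0.51 (adjusted p = 0.0205). The slope of ABCC5 was below 0 under the median and spike-in scalings, and another of its 3 probes fell by 1.09 (adjusted p = 1.1e-06). With a term for each slide, 0 transporters rose and 0 fell (2 and 0 at an unadjusted p under 0.05).

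Of 6 genes of the NRF2 system tested, 0 rose (0 also at an unadjusted p under 0.05) and 4 fell: KEAP1 by 0.69 (adjusted p = 2.5e-05), NFE2L1 by 0.67 (adjusted p = 8.78e-05), MAFG by 0.46 (adjusted p = 0.00726) and 1 more, and BACH1, a repressor at the same sites, changed by -0.29 (adjusted p = 0.503). A second, dimmer probe of MAFG changed by -0.004 and had a slope of 0.0030 (limma adjusted p = 0.455). With a term for each slide 0 of the 6 genes rose and 0 fell (0 and 1 at an unadjusted p under 0.05). The probe of NFE2L2, the gene of NRF2, was above background on 3 arrays and was not tested. Of 11 NRF2 targets that are not glutathione S-transferases, 6 fell and 1 rose, beside 32.7% and 21.3% of all genes, or 1 and 0 with a term for each slide. SRXN1, sulfiredoxin, fell by 1.49 (adjusted p = 4.17e-05). NQO1, a quinone reductase, fell by 1.33 (adjusted p = 0.0104) and ME1, malic enzyme, by 0.66 (adjusted p = 0.000657), each with 2 of 3 late arrays above background. The NQO1 probe read between 7.51 at 42 h and 236 at 14 h. FTL, ferritin light chain, rose by 0.53 (adjusted p = 0.00136), with a slope below 0 under spike-in scaling. Over all these lists with the NRF2 and neighbour genes, 75 genes were tested. Of these, 17 rose and 30 fell, beside 21.3% and 32.7% of all genes. With a term for each slide the counts were 4 and 4, beside 4.22% and 5.33% of all genes.

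**Figure D4:**
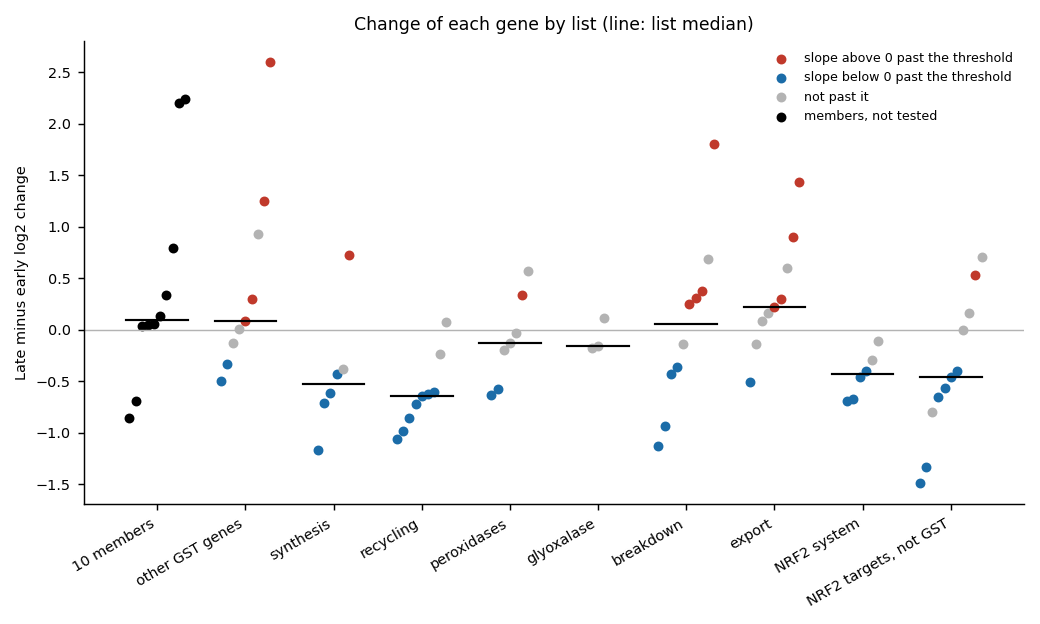
Late minus early change in log2 signal (vertical axis) of each gene, by list, with a line at the list median, and colours, for genes that are no members, for a slope on hours above or below 0 at the threshold used for all genes (members in black). The synthesis, recycling, NRF2 system and NRF2 target lists have medians from -0.65 to -0.43, and the 10 members one of 0.09 with GSTT2 and GSTT2B at the top.

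Markers of other cell types that a culture could hold were measured alongside. Of 10 fibroblast genes, 5 were tested, and 1 rose and 2 fell, beside 21.3% and 32.7% of all genes. COL1A1, COL1A2 and THY1 were above background on all 19 arrays, PDGFRB on 17, DCN on 9, and COL3A1, LUM, POSTN, TWIST2 and PRRX1 on 0 to 2. Of 5 hepatocyte genes, from a cell type rich in alpha class enzymes, APOA2, SERPINA1 and CPS1 were above background on all 19 arrays, CYP3A4 on 13 and ALB on 5. APOA2 rose by 2.49 (limma adjusted p = 8.08e-05, or 0.389 with a term for each slide), CPS1 fell by 0.35 (adjusted p = 0.035, or 0.949) and the other 3 did not pass the test. The part of such cells in the changes of GSTA3, GSTA4 and GSTA5 was not tested.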

How the data were processed

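Total RNA of 19 samples was labelled with Cy3 and hybridized to Agilent SurePrint G3 arrays. For each array the authors deposited the output of Agilent Feature Extraction 10.10.1.1, whose processed intensity has the background subtracted and no scaling between arrays, together with flags of 0 or 1 for background, saturation and outliers. A further table of intensities that the authors deposited equals the processed intensity times 1 factor per array (0.905 to 1.38), within 1.18% of the ratio of the 8 h array's 75th percentile to that array's.

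Flagged spots (0.632% of non-control spots) were left out, no spot was saturated, and spots of a probe were averaged. Log2 intensities were scaled to the 75th percentile over probes (525.5 to 800.3 before scaling). A gene was represented by its brightest probe on average. Slopes on hours came from limma 3.58.1 (R 4.3.3) over 32113 probes above background on at least 5 arrays, with Benjamini-Hochberg adjustment, and the fit was tested on simulated data. The study's methods name no test for the arrays. Each time point had 1 array, so p-values measure scatter about a line.

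The members and lists were chosen with earlier results of these data known. The text names the members, the other family genes with a probe, NFE2L2, KEAP1 and BACH1, up to 3 rises and 3 falls of each pathway, NRF2 and neighbour list, and the 5 genes nearest to GSTT2; DDTL was added for its position, after its values were seen. The alternatives were other scalings (array median, 7 spike-in levels), normexp (offset 50) with quantile normalization, the deposited table, averaged probes, other windows and filters, log2 hours, only the arrays to 54 h, a block for the slide, and each array left out. The 75th percentile over spots was added after seeing the data.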

Additional observations from a re-analysis of the deposited data

How the results depend on the processing

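No paired analysis was possible because no replicates exist. Among the members, the 4 slopes above 0 became 2 with spike-in scaling and 2 with the slide as a block, and the 2 below 0 became 1 with the slide. The duplicates GSTT2 and GSTT2B enter these counts as separate members. The 8 members with a late minus early change above 0 became 3 with median scaling, 3 with spike-in scaling and 5 with the windows 48 to 72 h and 3 to 12 h. GSTM4 changed by -0.005 (median) and -0.25 (spike-in). Of the other family genes, the 4 that rose became 2 (median), 1 (spike-in), 2 (normexp), 0 (slide), 2 (3 to 54 h), 2 (no filter), 2 (filter on all 19 arrays) and 2 to 3 with an array left out (2 without the 6, 8, 14, 16, 36, 48 or 60 h array). The 2 that fell became 4 (median) and 0 (slide). Over the pathway, NRF2 and neighbour lists, the 17 that rose became 5 (median), 3 (spike-in) and 4 (slide), and the 30 that fell became 4 (slide). Over all probes, the 8798 that rose became 4323 (median), 1489 (spike-in) and 1567 (slide), and the 7935 that fell became 1289 (slide). The slope per hour of GSTM1 became -7.1e-05 (median) and -0.0028 (spike-in), of GSTM5 -0.00027 and -0.0030, and of ABCC5 -5.2e-05 and -0.0028, with -0.0048 when its probes were averaged. Spike-in scaling gave slopes of -0.0015 for GPX8, -0.00073 for OPLAH, -0.00053 for FTL, -0.0017 for CABIN1 and -0.0012 for DERL3. Averaged probes gave -0.0045 for GPX8 and -0.0050 for DERL3. The slide as a block gave -0.0079 for GCLM and -0.0021 for CSF1, and normexp 0.0019 for DDT. The cause of these changes was not tested. Dim probes, such as those of the alpha class genes other than GSTA4, are the least certain.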

Other observations

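The probe of NFE2L2 had a median signal of 10.4 over the 19 arrays and read 996 at 16 h. The probe of ALOX5AP, a MAPEG relative, had a median of 6.10 and read 753 at 14 h, the only array on which it was above background. Neither gene enters a count above, and an outlying signal on 1 array of 1 probe has no replicate check.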
